A study of Mus musculus with 24 samples.

Results

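Granins and prohormone-processing genes were followed along the mouse jejunal villus. The set has 8 members, Chga, Chgb, Scg2, Scg5, Cpe, Pcsk1, Resp18 and Cartpt, taken by symbol from a table of 17811 genes. They were chosen with their zone pattern known, so their levels and differences between zones are given as a description with no test. Each of the 8 has 1 row in the table.

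The mice were C57BL/6 males aged 10 weeks on regular chow, with no treatment or altered allele named. Epithelium was freed from the jejunum with EDTA, stained for CD73 and CD26 to place cells along the villus, and sorted into the zones V1 (most bottom), V2 (bottom), V3 (bottom-middle), V4 (middle), V5 (middle-tip) and V6 (tip). Each zone of each of 4 mice gave 1 bulk library by mcSCRB-seq, a method that counts polyA molecules by unique molecular identifiers (UMIs), which makes 24 libraries with 4 in each zone. All zones came from the same animals, and the labels describe the sorted cells as enterocytes and name no gate that takes out endocrine cells.

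Enteroendocrine cells are rare hormone-secreting cells scattered through the gut epithelium. They pack peptides, and in some cells serotonin, into dense-core granules. Granins fill and help to form these granules, convertases cut prohormones inside them at basic residues, and a carboxypeptidase then trims the ends of the fragments. In the small intestine most such cells arise in the crypt and move up the villus, and the hormones they make can change on the way.

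The libraries held between 806541 and 2266261 UMIs, and levels are in CPM (UMIs scaled to a common total, after the TMM correction for library makeup). Enterocyte markers were abundant in every library, with a sum over 6 genes from 8226 to 22575 CPM in V1 and from 62699 to 90172 in V6. The sum over 7 goblet cell markers ran from 47402 to 94343 CPM in V1 and from 9414 to 15584 in V6, so transcripts of another secretory cell type were abundant in the lower libraries. The sum over 5 Paneth cell markers ran from 1611 to 31823 CPM over all libraries. Its mean was 10781 CPM in V1, 16007 in V5 and 6966 in V6. The enterocyte and goblet cell sums changed along the same axis as the values that follow. The part of all these sums in those values was not tested.

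All 8 members had their highest level in V6 in 4 of 4 mice. For 8 of 8 the lowest V6 library lay above all other 20 libraries, which held for 0.600% of the 9328 genes tested (56 genes). The members were chosen for such a pattern, and the share is given as background. Summed over the 8, the level was 205 ± 21.8 CPM in V1, 132 ± 72.9 in V3, 186 ± 63.8 in V4, 286 ± 138 in V5 and 1681 ± 837 in V6 (SD, n = 4). Between the last 2 zones the ratios of the V6 to the V5 mean ran from 4.96 for Chga to 8.23 for Scg2, and 21.0 for Cartpt, which was close to its counting limit in V5. In these bulk libraries more endocrine cells and more RNA per endocrine cell cannot be told apart. The zones are sort gates on CD73 and CD26, and the position on the villus of the endocrine cells in each gate was not tested.

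**Figure D1:**
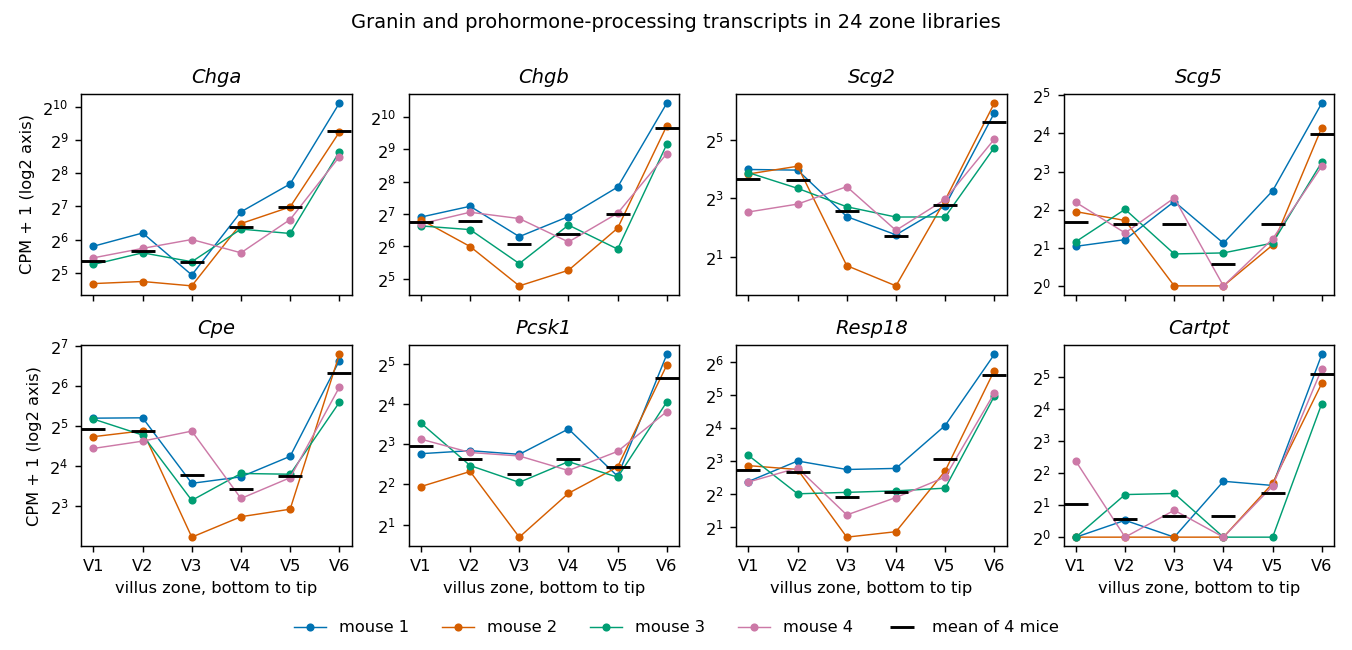
CPM plus 1 on a log2 axis for the 8 genes in zones V1 to V6, 1 coloured line for each of 4 mice, with black bars at the mean. Every gene is highest in V6 in all 4 mice, while Chga climbs from V3 onward and Scg2 and Cpe dip in the middle zones.

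Chga encodes chromogranin A, an acidic granin of the granule core and the common marker of endocrine cells. It lies on chromosome 12 (102554969 to 102565028, + strand, GRCm38). In V1 it had 54.8, 24.6, 37.1 and 42.8 CPM in mice 1 to 4, and in V4 it had 113, 88.6, 78.8 and 47.7. In V6 the same mice had 1105, 602, 399.6 and 360.3 CPM. Every mouse was higher in V4 than in V1, although the lowest V4 value lay inside the V1 range. V2 and V3 stayed near V1, with means of 49.6 ± 19.2 and 38.9 ± 17.5 CPM (SD, n = 4), and V5 had 124 ± 57.4. The fitted log2 difference was 1.06 ± 0.41 from V1 to V4 and 2.89 ± 0.41 from V4 to V6 (SE). Chga was the sole member whose fitted V4 level was above V1 with all mice included. Pcsk1 joined it without mouse 3 and Cartpt without mouse 4.

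Chgb encodes chromogranin B, the second chromogranin of the granule core, and lies on chromosome 2 (132781278 to 132795079, + strand). It had 119, 113, 98.4 and 103 CPM in V1, and 120.5, 37.4, 100.2 and 69.4 in V4, in mice 1 to 4. The V4 values straddled the V1 range, and V4 was higher than V1 in 2 of 4 mice. In V6 it had 1381, 850.1, 571 and 467 CPM, all above its highest value elsewhere, 228. The log2 difference was -0.39 ± 0.46 from V1 to V4 and 3.31 ± 0.48 from V4 to V6 (SE).

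Scg2 encodes secretogranin II, a granin that is also cut into the peptide secretoneurin, and lies on chromosome 1 (79434669 to 79440120, - strand). It had 14.8, 13.2, 13.6 and 4.76 CPM in V1 and 2.35, 0, 4.11 and 2.72 in V4. These ranges did not overlap, and V4 was the lowest zone by its mean. In V6 it had 59.0, 74.8, 25.5 and 31.3 CPM, a log2 difference of 4.35 ± 0.57 from V4 (SE). From V1 to V4 the difference was -2.32 ± 0.63. The 0 in mouse 2 allows up to 3 UMIs, or 2.44 CPM in that library.

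Scg5 encodes secretogranin V, also called 7B2, a chaperone that binds the convertase PC2, and lies on chromosome 2 (113776362 to 113829121, - strand). It was near the counting limit below the tip, with 59 of its 147 UMIs in the 20 libraries of V1 to V5 and 3 of these at 0. In V6 it had 26.8, 16.8, 8.49 and 7.82 CPM, against a highest value of 4.63 elsewhere. Pcsk2, the gene of PC2 itself, had 2 UMIs in all 24 libraries and none in V6.

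Cpe encodes carboxypeptidase E, which removes basic residues from the ends of peptides cut by convertases, and lies on chromosome 8 (64592542 to 64693054, - strand). It had 35.8, 25.7, 35.3 and 20.8 CPM in V1, 12.3, 5.69, 13.1 and 8.17 in V4, and 98.5, 110.0, 47.4 and 61.9 in V6. The 4 V4 libraries all lay below the 4 V1 libraries, and the 4 V6 libraries all lay above them. The log2 difference was -1.54 ± 0.42 from V1 to V4 and 2.97 ± 0.41 from V4 to V6 (SE). Separation of V4 below V1 was found for 2 of the 8 members, Scg2 and Cpe, and for 14.9% of all genes tested.

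Pcsk1 encodes the convertase PC1/3, which makes the first cuts in many gut prohormones, and lies on chromosome 13 (75089826 to 75134861, + strand). Its V6 values were 36.5, 30.2, 15.6 and 13.03 CPM, and its highest value elsewhere was 10.5 in mouse 3 in V1. V1 to V5 had means between 3.75 and 6.73 CPM, with overlapping ranges between neighbours in the order of means. The log2 difference from V4 to V6 was 2.09 ± 0.44 (SE).

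Resp18 encodes a granule protein of neuroendocrine cells and lies on chromosome 1 (75272199 to 75278415, - strand). In the GENCODE annotation it overlaps Gm28902 on the opposite strand, and the strand setting of the counting is not given in the sources used here. It had 74.8, 52.9, 30.4 and 32.6 CPM in V6. Outside V6 its highest value was 16.0, in mouse 1 in V5, and the other V5 libraries had 3.53 to 5.51 CPM. The log2 difference from V4 to V6 was 3.78 ± 0.50 (SE).

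Cartpt encodes the CART prepropeptide, a granule cargo rather than a part of the machinery, and lies on chromosome 13 (99898489 to 99901091, - strand). It was at 0 in 11 of the 24 libraries, and the tip held 197 of its 223 UMIs. Its V6 values were 51.1, 26.9, 17.0 and 37.1 CPM, and its highest value elsewhere was 4.16 in mouse 4 in V1. The log2 difference from V4 to V6 was 5.25 ± 0.83 (SE), which depends on the default prior count of the edgeR fit since 3 of 4 V4 libraries were at 0.

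Below V6 the order of the zones was not sharp. For each member the ranges of the 4 libraries overlapped between neighbours in the order of zone means, except that all 4 V4 libraries of Scg5 (mean 0.499 CPM) lay below all 4 of V2 (mean 2.06).

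All 8 members passed the filter on low counts. Scg5 and Cartpt passed through V6 alone, with 0 libraries of V1 to V5 above the filter's 6.65 CPM. Of the 20 libraries outside V6, 4 were above it for Pcsk1, 5 for Resp18, 8 for Scg2, 17 for Cpe and 20 for Chga and Chgb.

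The balance between members changed along the lower villus. Each ratio was taken within a library from its UMI counts, so it does not depend on the scaling between libraries. Chgb to Chga went from 2.95 ± 1.10 in V1 to 2.24 ± 0.30 in V2, 1.67 ± 0.72 in V3 and 1.05 ± 0.45 in V4, and was 1.01 ± 0.27 in V5 and 1.35 ± 0.088 in V6 (SD, n = 4). The lowest V1 library, at 2.17, was above the highest V4 library, at 1.46. In V6 the 4 mice lay between 1.25 and 1.43, although their Chga levels differed up to 3.07-fold. Cpe to Chga was 0.784 ± 0.26 in V1, against 0.128 ± 0.051 in V4 and 0.141 ± 0.044 at the tip, again with no overlap of V1 with V4 or V6. Chga thus made up 19.2% ± 4.68 of the members' UMIs in V1, against 45.5% ± 13.8 in V4 and 36.2% ± 2.05 at the tip, while the share of Cpe went from 14.3% ± 2.68 to 5.32% ± 1.07 and 5.02% ± 1.37.

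**Figure D2:**
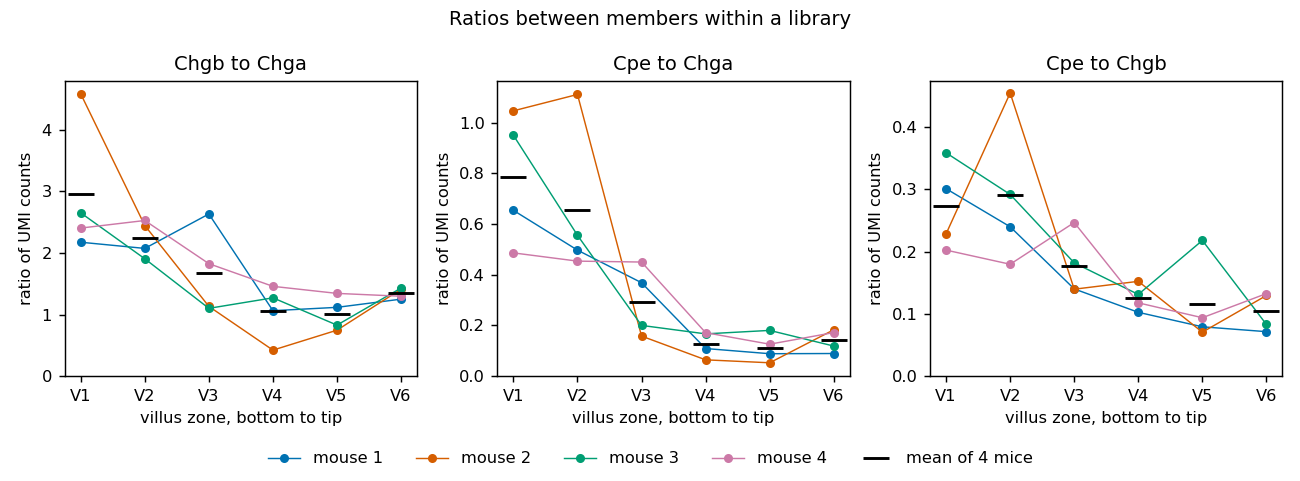
Ratios of UMI counts within each library (linear axes from 0) for Chgb to Chga, Cpe to Chga and Cpe to Chgb in zones V1 to V6, 1 line for each of 4 mice and black bars at the mean. The ratios to Chga are lower in V4 than in V1, and in V6 Chgb to Chga lies between 1.25 and 1.43, against 0.422 to 1.46 in V4, where mouse 2 is lowest.

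A straight slope over the zones describes these genes poorly, since V6 stood above all other zones and Scg2 and Cpe dipped before it. Per zone, the fitted log2 slope was 0.71 ± 0.07 for Chga, 0.45 ± 0.08 for Chgb, 0.17 ± 0.08 for Scg2, 0.36 ± 0.11 for Scg5, 0.10 ± 0.06 for Cpe, 0.25 ± 0.08 for Pcsk1, 0.48 ± 0.08 for Resp18 and 0.86 ± 0.17 for Cartpt (SE). Over V1 to V5 alone the slope of Chga was 0.40, that of Chgb 0.0039, and those of Scg2, Cpe and Pcsk1 turned to -0.44, -0.39 and -0.12.

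Across the 24 libraries, pairs of members had Pearson correlations of log2 CPM from 0.584 (Chga and Cpe) to 0.943 (Chgb and Resp18). Scg2 and Cpe, whose V4 libraries all lay below V1, had 0.929, and after subtraction of the zone means they still had 0.769. For Scg2 and Cartpt the correlation went from 0.687 to 0.049 in the same step. The libraries share zones and mice, and these values describe the set.

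The members' pattern was most like that of a small group of other genes. By Pearson correlation over the 24 libraries with the mean z-score of the members, the 10 closest were Gpx3 (0.939), Serpina1c (0.926), Prnp (0.925), Sct (0.917), Cerkl (0.908), Serpina1e (0.888), Tph1 (0.883), Ambp (0.869), Amigo2 (0.855) and Nts (0.855). Sct, Tph1 and Nts encode secretin, the rate-limiting enzyme of serotonin synthesis outside the brain, and neurotensin. Gpx3, a secreted glutathione peroxidase, had 7.09 ± 2.39 CPM in V4 and 77.2 ± 37.4 in V6 (SD, n = 4). Serpina1c and Serpina1e are near-identical copies in a gene cluster, and reads shared between such copies could not be assigned here.

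The members' promoters were searched for the cyclic AMP response element, a motif known from promoters of neuroendocrine genes. RefSeq promoter windows of GRCm38.p6 were matched for 7 of the 8 members, all but Cpe. In the 250 bases before the RefSeq start, the palindrome TGACGTCA was present in 4 of 7 members (Chgb, Scg2, Pcsk1 and Cartpt) and in 1.55% of all 32851 windows. The variant TGACGTAA (TTACGTCA on the other strand) was present in Chga and in 0.447% of windows. The 5-letter core TGACG, searched on both strands and contained in both longer forms, was present in 6 of 7 members and in 17.8% of windows. The members were not chosen on sequence, but the motif was chosen with their identity known, and a match is a description of letters, not of a bound site. Below are the 30 bases around each longer match, 5′ to 3′ on the gene's strand with the match in capitals, shown so that the palindrome of 4 genes can be read beside the variant of Chga. The 250 bases of Resp18 hold none of the 3 forms. No test links the motif to the zone levels.
Chga (chr12:102554886-102554915, + strand): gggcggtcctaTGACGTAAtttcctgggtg
Chgb (chr2:132781559-132781588, + strand): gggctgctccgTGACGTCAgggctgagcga
Scg2 (chr1:79440076-79440105, - strand): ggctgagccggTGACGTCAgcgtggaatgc
Pcsk1 (chr13:75089768-75089797, + strand): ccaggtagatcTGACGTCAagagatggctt
Cartpt (chr13:99900777-99900806, - strand): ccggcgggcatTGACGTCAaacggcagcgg
Resp18 (chr1:75278416-75278665, - strand): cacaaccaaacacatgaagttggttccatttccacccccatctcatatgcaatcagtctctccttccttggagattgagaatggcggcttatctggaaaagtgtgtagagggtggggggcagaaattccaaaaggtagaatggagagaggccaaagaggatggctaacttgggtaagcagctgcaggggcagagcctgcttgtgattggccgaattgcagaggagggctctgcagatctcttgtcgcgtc

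Counted from the RefSeq start, with -1 the base before it, the first base of the match lay at -44 in Chga, -72 in Chgb, -68 in Scg2, -78 in Pcsk1 and -112 in Cartpt. The matches of Chgb, Scg2 and Cartpt lie inside exons of longer GENCODE transcripts, and those of Chga and Pcsk1 lie outside any exon of that annotation. Scg5 has the 5-letter core alone, at -175. Resp18 has no match.

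The other genes of the pathway were taken from lists chosen by known function. In each list the edgeR quasi-likelihood test across all genes, with Benjamini-Hochberg adjustment, was read for the slope over zones, which called 22.1% of genes higher and 22.8% lower toward the tip (27.6% higher with mouse as a block, 12.0% higher of all genes with no filter). For V6 against V4, a contrast added after the values were seen, it called 0.450% of genes higher (42 genes) and none lower, with 407 genes in either direction at an unadjusted p under 0.05. DESeq2 called 65 higher there, and edgeR with mouse as a block 126 higher (1.35%) and 6 lower. V4 was called lower than V1 for 17.5% of genes. The median gene had a slope of -0.0047 and a V6 minus V4 of -0.00079.

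None of the 9 tested processing enzymes outside the set was called higher in V6 than in V4, where 0.450% of all genes were. At that share, 0 calls say nothing particular of this list. The slopes went both ways, beside 22.1% higher and 22.8% lower among all genes. Of 14 convertases, carboxypeptidases, amidation enzymes and inhibitors named, 13 had a row and 9 were tested. Of these 3 rose and 2 fell with the slope (median 0.13), 5 rose with mouse as a block (Pcsk4 and Cpd added), and 0 were called in V6 against V4 (median 0.26). Furin, a convertase of the secretory pathway of most cells, rose from 21.0 ± 5.11 CPM at the bottom to 55.7 ± 1.12 at the tip (SD, n = 4; slope 0.29 ± 0.04 SE, adjusted p = 5.06e-06). Ctsl, a cathepsin, rose with a slope of 0.24 ± 0.06 (adjusted p = 0.00118) and the convertase gene Pcsk5 with 0.24 ± 0.07 (adjusted p = 0.00616), while Pcsk5 was lower in V6 than in V4 in 4 of 4 mice. Cpm, a membrane carboxypeptidase, fell from 23.0 ± 8.51 to 7.20 ± 4.84 CPM (slope -0.36 ± 0.07, adjusted p = 0.000229), and the cathepsin gene Ctsh fell with -0.14 ± 0.05 (adjusted p = 0.0159). Without V1 the slopes of Cpm, Pcsk5 and Ctsh were no longer called, and without mouse 1 or mouse 3 that of Ctsh was not.

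Pam, whose product amidates many gut peptides, was tested and not called, with 13.8 CPM in V4 and 20.8 ± 5.76 in V6 (SD, n = 4). Genes below the filter, named after their values were seen, included 2 whose UMIs lay mostly in the tip. Pcsk1n, which encodes an inhibitor of PC1/3, had 86 of its 148 UMIs in V6, and the glutaminyl cyclase gene Qpct 26 of 31. Of the others below the filter, Pcsk6 had 1 of 18 UMIs in V6 and Pcsk2 0 of 2. With no filter, which called 0.368% of genes higher in V6 than in V4, Pcsk1n was the 1 gene of this list called.

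Among the granule docking and release genes the slopes went both ways, beside 22.1% higher and 22.8% lower among all genes tested. With no filter 5 fell and 5 rose, beside 2048 and 2114 of 17680 genes. Of 26 named, 24 had a row and 10 were tested, of which 1 rose (Slc18a1, a vesicular monoamine transporter) and 4 fell with the slope (median -0.095). The 4 were Rab3d (slope -0.29 ± 0.04, adjusted p = 1.34e-06), Rab27a (-0.50 ± 0.08, adjusted p = 1.26e-05), Rab27b (-0.28 ± 0.05, adjusted p = 0.000114) and Rph3al (-0.28 ± 0.06, adjusted p = 0.000788). The rise of Slc18a1 was not called without mouse 1, with scaling by total UMIs, over V2 to V6 or over V1 to V5. The 4 genes of vesicle docking that fell are used by many secretory cells, and the goblet cell sum was lower at the tip too, whose part was not tested. Over V2 to V6 the falls of Rab27a (adjusted p = 0.0721) and Rab27b (0.259) were no longer called, Rph3al did not pass the filter, and Rab3d was called (0.0478). Rab3d had 70.1 ± 16.6 CPM in V1, then 19.4 in V4 and 25.7 ± 8.15 at the tip (SD, n = 4).

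From V4 to V6 this list had 1 call, Scgn, the gene of the calcium sensor secretagogin (log2 difference 4.03 ± 0.69 SE, adjusted p = 0.00199), which was lost with a filter at 20 counts. With mouse as a block Syt7, a synaptotagmin, was called too (adjusted p = 0.0197). Scgn had 8.96, 11.4, 6.81 and 2.97 CPM in V1, 0.588, 0.813, 0 and 1.36 in V4, and 13.99, 10.9, 9.90 and 10.4 in V6. Like Scg2 and Cpe it was low in the middle and present at both ends, but its V1 and V6 ranges overlapped. The 14 genes of this list below the filter had at most 101 UMIs each, and those named here were chosen after their values were seen. Unc13b had 7 of its 101 UMIs in V6 and Sytl4 9 of 73. Snap25, a SNARE protein of regulated release, had 49 of its 54 UMIs in V6, Scg3, another granin, 50 of 88, and Ptprn, a granule membrane protein, 41 of 64. With no filter Scgn, Snap25, Scg3 and Ptprn were called higher in V6 than in V4. At that setting 5 genes of the list rose with the slope and 5 fell (median 0.11).

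Hormone and serotonin genes differed in where they were high. Of 15 named, 13 had a row and 11 were tested. Of these 4 rose and 1 fell with the slope (median 0.20), beside 22.1% and 22.8% of all genes tested. From V4 to V6, where 0.450% of all genes were called higher, 5 rose (median 3.38), Cck, Nts, Pyy, Sct and Tph1. Tac1 was added with mouse as a block. Sct had the shape of Scg2 and Cpe. It had 402 ± 145 CPM in V1, then 158 ± 75.8 in V4 and 1659 ± 319.7 at the tip (SD, n = 4), a difference of -1.35 ± 0.37 from V1 to V4 (SE, adjusted p = 0.00707) and of 3.39 ± 0.39 from V4 to V6 (adjusted p = 4.82e-05). Over V1 to V5 its slope was -0.32 (adjusted p = 0.00672), and its slope over all zones (0.20 ± 0.06, adjusted p = 0.00978) was lost without mouse 1 and with scaling by total UMIs. Both contrasts use the same V4 libraries.

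Tph1 was lowest in V3, and V4 was above V1 in 2 of 4 mice. It had 5.15 ± 1.02 CPM at the bottom, 1.62 ± 0.908 in V3, 5.27 ± 3.31 in V4, 17.4 ± 16.0 in V5 and 128 ± 59.5 at the tip (SD, n = 4; slope 0.92 ± 0.09 SE, adjusted p = 8.38e-08), and it had the highest correlation with Chga of the hormone list, 0.939. Cpe and Scg2 had theirs with Sct, at 0.934 and 0.931, and Cartpt had its own with Tph1, at 0.906. These are correlations over 24 libraries that share zones and mice. Nts, the neurotensin gene, had 1545, 1695, 1257 and 1400 CPM in V6 in mice 1 to 4 and at most 70.6 CPM elsewhere (adjusted p = 0.000311 for V6 against V4).

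Gip, which encodes the glucose-dependent insulinotropic polypeptide, went the other way. It fell from 1329 ± 164 CPM in V1 to 229.7 in V4 and 131 ± 27.7 at the tip (SD, n = 4; slope -0.79 ± 0.13 SE, adjusted p = 9.59e-05). In the same V1 libraries Chgb had 108 ± 9.38 CPM, and in V6 it had 817 ± 409. The V6 mean of Gip was close to its V5 mean, 138 ± 138 CPM. From V4 to V6 Gip was not called (log2 difference -0.81 ± 0.72 SE), and V6 was above V4 in 2 of 4 mice.

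**Figure D3:**
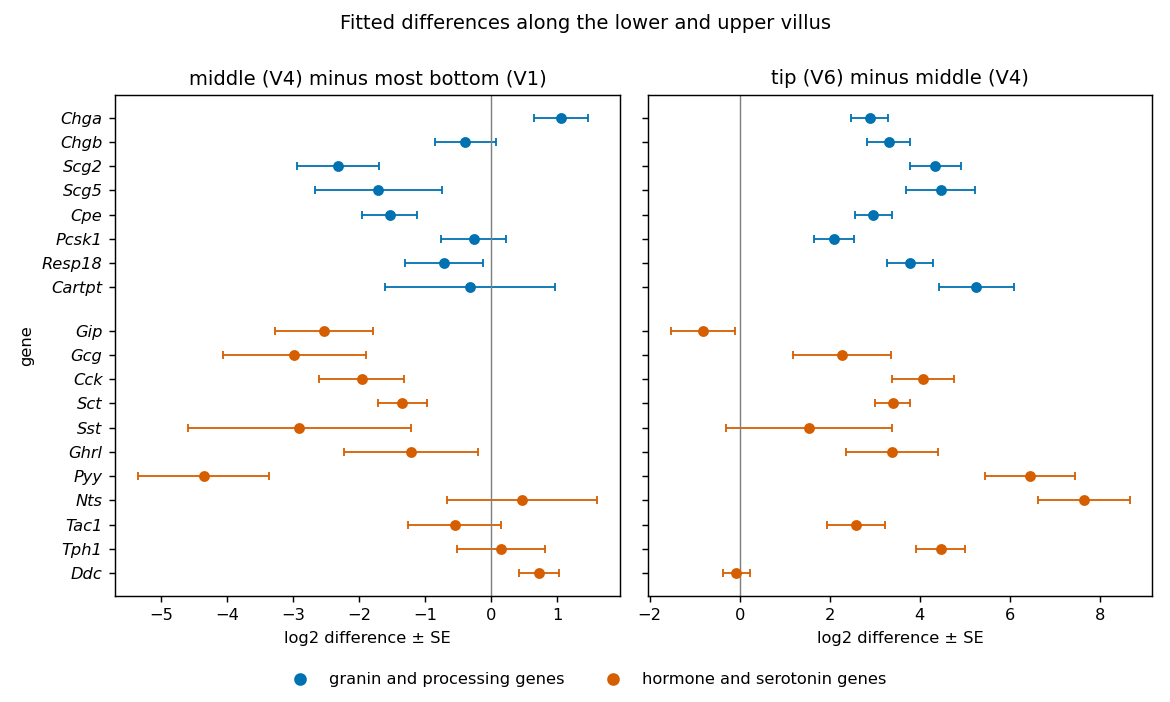
Fitted log2 differences ± SE (x axes) from V1 to V4 (left) and from V4 to V6 (right) for the 8 members (blue) and 11 hormone and serotonin genes (orange), 1 row per gene. On the left Chga lies above 0 and the other 7 below it, with Scg2, Scg5, Cpe and Resp18 below by more than their SE. On the right all members lie between 2.09 and 5.25, while Gip lies at -0.81 ± 0.72 and was not called.

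**Figure D4:**
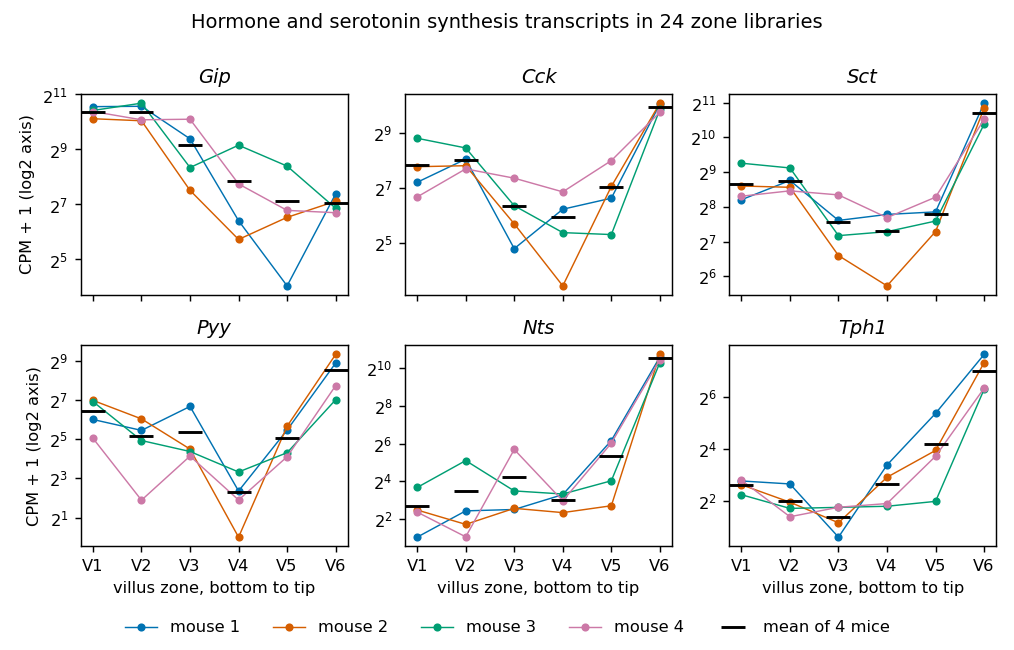
CPM plus 1 on a log2 axis for 6 hormone and serotonin genes in zones V1 to V6, 1 line for each of 4 mice and black bars at the mean. Gip is highest in V1 and V2, Cck, Sct and Pyy dip in V4, and Nts and Tph1 are low until V5.

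Endocrine transcription factors were mostly too low to test. Of 18 named, 17 had a row and 3 were tested (Foxa1, Foxa2 and Hmgn3). Foxa2, a forkhead factor of gut epithelium, fell with the slope (-0.37 ± 0.11, adjusted p = 0.0103), a call lost without mouse 3 or mouse 4, and 0 rose. Among all genes tested 22.8% fell and 22.1% rose. None was called in V6 against V4, though with mouse as a block Hmgn3, a nucleosome-binding protein gene, was (2.57, adjusted p = 0.0199). The 14 below the filter had at most 95 UMIs each, and those named here were chosen after their values were seen. Lmx1a had 30 of 47 UMIs in V6 and Insm1 40 of 95. Rfx6 had 8 of 30 and St18 4 of 16, and V6 was their highest zone by its mean too. Their V6 means, 1.41 and 0.644 CPM, were close to those of V2, 1.32 and 0.577. Neurog3, the factor that starts endocrine differentiation, had 35 UMIs in all and 1 in V6.

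Markers of enteric neurons and glia, other cells that use granins or dense-core granules, had few UMIs. Of 13 such genes named, 4 had a row. Over the 24 libraries Uchl1 had 11 UMIs, all of them in V6, Prph had 7, with 5 in V6, and S100b had 18, with 1 in V6. The 8 members summed to 1011 to 2833 CPM in the V6 libraries. The sum over 6 tuft cell markers was 2.29 to 17.9 CPM in V1 and 12.6 to 47.4 in V6, where its zone mean was highest. The T lymphocyte sum also changed in the same direction as the members, from 6.29 to 50.1 CPM over 7 genes in V1 to 107 to 173 in V5 and 223 to 269 in V6. The part of neurons and glia, tuft cells and T lymphocytes in the members' values was not tested.

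The mice differed in the level of some members, a comparison the choice of members did not use. In a model with zone and mouse, the edgeR test of mouse called 3 of 8 members, Resp18 (adjusted p = 0.00345), Chgb (0.0418) and Chga (0.0474), beside 48.1% of all genes. For these 3 genes mouse 1 was high. Its log2 CPM was above the zone mean in 6 of 6 zones for Chgb, by 0.61 ± 0.31 on average, in 5 of 6 for Resp18, by 0.62 ± 0.53, and in 5 of 6 for Chga, by 0.53 ± 0.44 (SD over 6 zones). Without mouse 1 none of the 3 was called (adjusted p from 0.525 to 0.931), and without mouse 2 or mouse 3 Chga and Chgb were not (0.0599 to 0.124). The other 5 members had adjusted p from 0.123 to 0.516. With no filter on low counts Scg2 (adjusted p = 0.0216) and Cartpt (0.00766) were called too, beside 27.8% of all genes at that setting. A share near the background says nothing particular of the members. The libraries of mouse 1 were among the deepest, with 1602022 to 2266261 UMIs, and all carried 1 Illumina i7 index in the deposited sample sheet, shared with 1 library of mouse 2, so mouse, depth and index cannot be told apart.

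**Figure D5:**
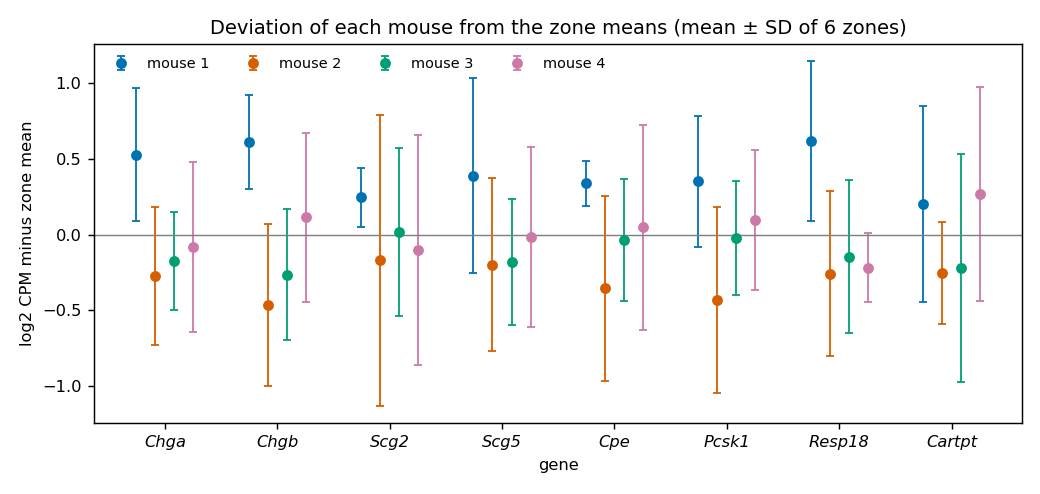
Mean deviation of each mouse from the zone mean of log2 CPM (y axis) for the 8 members, with bars for the SD over 6 zones. Mouse 1 lies above 0 for all 8 genes.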

How the data were processed

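The deposited table holds UMI counts per gene for 24 libraries, made by the authors with zUMIs as the deposited table is titled. Per the submitters' processing notes, bcl2fastq 2.15.0.4 and the GRCm38 build were used. The sources used here name neither the aligner nor the gene annotation. Counts of 17811 genes were used as deposited, 131 rows of them all 0.

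Tests used edgeR 4.0.16 in R 4.3.3 (TMM scaling, quasi-likelihood test, zone means over all 24 libraries, 18 residual degrees of freedom), with Benjamini-Hochberg adjustment over the 9328 genes that passed filterByExpr by zone (minimum count 10, total 15). A gene was called at an adjusted p under 0.05. Log2 CPM has a prior count of 2, while fitted log2 differences and slopes keep the edgeR default. Their SE is the absolute log2 value divided by the square root of the quasi-likelihood F. UMIs count 1 end of a molecule, so no length scaling was made, and a count of 0 allows up to 3 UMIs, for counting error only. Gene positions come from GENCODE M21 and promoters from RefSeq.

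The members and lists were chosen with earlier results of these data known. Named genes are all members, up to 4 tested genes per list with the smallest adjusted p of the slope plus the most abundant one, and the 10 genes most like the members; others named were chosen after their values were seen. V6 against V4 and V4 against V1 were added after the values were seen. The scripts were tested on simulated counts. One gene of the enteric neuron and glia marker list, and the sum over that list, are not reported here.

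Mouse numbers pair the libraries, since all zones of a number are from 1 animal per the labels. Deviations from zone means had a mean correlation of 0.418 within a mouse (60 of 60 pairs over 0.1, lowest 0.182). Between mice it was -0.139, which largely follows from the first value, since the deviations in a zone sum to 0 over the 4 mice. No 2 libraries of a zone agreed within sampling noise (36 pairs, chi-square per degree of freedom 3.34 to 27.5). The deposited sample sheet lists 4 Illumina i7 indexes, shared by 7, 5, 6 and 6 libraries, with mouse 2 split over a pair and mice 1, 3 and 4 each under 1 index. What an index stands for in the sequencing runs is not stated there. Alternatives were other scalings (DESeq2 size factors, total UMIs), no filter or a filter at 20 counts, DESeq2 1.42.0, mouse as a block, fewer zones and each mouse left out.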

Additional observations from a re-analysis of the deposited data

Results flagged for a closer look

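In 15 of 162 groups (27 genes in 6 zones of 4 mice), 1 library stood apart from the other 3 by Dixon's test of its gap to the nearest neighbour (95% level). Chance flags about 1 in 20 groups. Among the members these were Scg2 in V1 of mouse 4 (4.76 CPM, low), Scg5 in V5 of mouse 1 (4.63, high), Resp18 in V5 of mouse 1 (16.0, high), and Cartpt in V1 of mouse 4 (4.16, high), in V4 of mouse 1 (2.35, high) and in V5 of mouse 3 (0, low). Those of Scg5 and Cartpt are levels of a few UMIs. Among the other named genes they were Ctsl in V4 of mouse 3 (33.7), Pcsk5 in V4 of mouse 3 (109), Ctsh in V3 of mouse 2 (64.6), Rab3d in V6 of mouse 4 (37.8), Nts in V2 of mouse 3 (33.3) and in V3 of mouse 4 (50.6), Hmgn3 in V5 of mouse 4 (2.02) and in V6 of mouse 1 (13.99), and Pyy in V3 of mouse 1 (100.9). For the members, none of the 6 lay in V6.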

How the results depend on the processing

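V6 minus V4 stayed above 0 for all 8 members under every alternative run. Leaving out 1 mouse at a time gave 4.93 to 8.26 for Cartpt. V4 minus V1 ran from -2.75 to -1.17 for Scg5, from -0.89 to 0.077 for Pcsk1 (above 0 without mouse 3) and from -4.08 to 3.68 for Cartpt (above 0 without mouse 4). The Cartpt slope ran from 0.63 to 1.36. That of Scg5 was 0.16 without mouse 1. Over V2 to V6 the slopes were 0.68 for Chgb, 0.43 for Scg2, 0.58 for Scg5, 0.30 for Cpe, 0.45 for Pcsk1, 0.75 for Resp18 and 1.35 for Cartpt. Over V1 to V5 they were 0.40 for Chga, 0.0039 for Chgb, -0.44 for Scg2, -0.39 for Cpe, -0.12 for Pcsk1, 0.015 for Resp18 and -0.32 for Sct. Scg5 and Cartpt did not pass the filter over V1 to V5, nor Scg5 the filter at 20 counts. The zones left out make these differences.

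Scaling by total UMIs shifted the median gene by -0.34 (log2) in V6 minus V1 and in V4 minus V1. It gave a slope of 0.029 and a V4 minus V1 of -1.87 for Cpe, and 1217 genes higher and 3720 lower with the slope (2063 and 2126 with TMM). For V6 against V1 it gave 1152 and 3102 (1882 and 1737), and for V4 against V1 1051 and 2999 (1769 and 1634). The hormone list then had 2 rises and the granule list 0.

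With mouse as a replicate block, 4533 genes differed between zones (2556 without) and 126 were higher in V6 than in V4 (42 without), and 5 enzymes rose. V6 above V4 then held for 2 granule genes and 1 transcription factor. These were Syt7 and Scgn, and Hmgn3, and Tac1 was added among the hormones. The block changed no other call of a gene that the text names by its slope or V6 against V4, beside Pcsk4 and Cpd. V6 above V4 was called for 65 genes with no filter, 27 with a filter at 20 counts and 65 in DESeq2. With no filter 5 granule genes and 1 transcription factor rose with the slope, and 5 granule genes fell. At that setting 1 enzyme, 4 granule genes and 1 transcription factor were higher in V6 than in V4. With the filter at 20, 0 granule genes were higher and 0 transcription factors fell.

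Over V2 to V6, 862 genes rose and 256 fell, with 0 enzymes lower, 0 granule genes higher and 1 lower, and 0 transcription factors lower. Over V1 to V5, 0 granule genes and 1 hormone gene rose, and 4 hormone genes and 2 transcription factors fell.

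Without 1 mouse at a time, 1293 to 1777 genes fell with the slope, 982 to 1464 were lower in V6 than in V1, 1365 to 2043 differed between zones, 25 to 43 were higher in V6 than in V4, and 952 to 1316 were lower in V4 than in V1. The lowest counts came without mouse 1 for the first 3, without mouse 1 or 2 for V6 against V4, and without mouse 4 for V4 against V1. In the lists this gave 1 to 2 enzymes lower and 0 to 1 higher in V6 than in V4, 0 to 1 granule genes rising and 1 to 2 higher in V6 than in V4, 2 to 6 hormone genes rising, 1 to 3 falling and 3 to 6 higher in V6 than in V4, and 0 to 1 transcription factors falling. Depth limits Scg5 and Cartpt, which had 59 and 26 UMIs outside V6.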
